A study of Rattus norvegicus with 48 samples.

Results

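The genes described here are those that make and load peptides for MHC class I in rat primary cortical cultures treated with the HIV protein Tat, cocaine and 4 compounds. They are the 9 symbols B2m, Tap1, Tap2, Tapbp, Erap1, Psmb8, Psmb9, Psmb10 and Nlrc5, taken by name from the 30211 genes of the deposited expression table. A total of 8 of the 9 had at least 0.5 counts per 1000000 reads (CPM) in at least 3 libraries and entered the tests, among 15890 genes in all, and Tap2 did not. RNA-seq libraries had been made from 48 cultures in 16 groups of 3.

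All cultures were mixed neuronal cultures from Sprague-Dawley rat fetuses of embryonic day 18, kept for 21 days in vitro. Control cultures received no agent. Cocaine cultures received 25 µM cocaine for 24 h, Tat cultures 6 ng/mL recombinant Tat for 48 h, and Tat-Cocaine cultures both. The paper describes cocaine as added after the 48 h of Tat, so Tat-Cocaine cultures may have been with Tat for longer. Cocaine and time with Tat then cannot be told apart between Tat and Tat-Cocaine cultures. The compounds were 4-octyl itaconate (4OI, 250 µM), a cell-permeable derivative of the metabolite itaconate, Amlexanox (25 µM), an inhibitor of the kinases TBK1 and IKK-epsilon, Tazemetostat (3 µM), an inhibitor of the methyltransferase EZH2, and Senicapoc (1 µM), a blocker of a calcium-activated potassium channel. Each compound was given by itself, beside Tat, and beside both Tat and cocaine, in groups named for the agents they hold (4OI, Tat-4OI, Tat-Cocaine-4OI and so on). The cultures received a viral protein and no virus, and the labels do not say whether the 3 libraries of a group came from separate litters, so p-values measure only the spread between these libraries. The labels call the cells neurons. The libraries also held RNA of other cells, and in the 3 Control libraries the summed level of 9 neuronal markers was 2675 to 4239 CPM, that of 7 astrocyte markers 9409 to 11567 CPM and that of 13 microglial and macrophage markers 1612 to 2878 CPM. Levels are therefore bulk levels, in which fewer cells of a type and less RNA per cell cannot be told apart.

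MHC class I molecules show fragments of a cell's own proteins, and of viral proteins, to CD8 T cells. The proteasome cuts proteins into peptides, and in its inducible form, the immunoproteasome, Psmb8, Psmb9 and Psmb10 take the place of the catalytic subunits Psmb5, Psmb6 and Psmb7. The transporter of Tap1 and Tap2 carries peptides into the endoplasmic reticulum, where the aminopeptidase Erap1 trims them and tapasin (Tapbp) holds the empty class I molecule at the transporter, and B2m is the light chain of every classical class I molecule. Nlrc5 is a transactivator of class I genes, and interferons raise the whole group in many cells. Neurons are known for a low class I level at rest, and microglia for a higher one.

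Depth was estimated from the deposited values, with the most frequent value above 0 in a library taken as 1 read. By this estimate it was 17.5 M to 29.1 M (1 M is 1000000) reads assigned to genes per library (median 22.4 M reads). At that depth 0.5 CPM stood for 8.58 to 14.96 reads. Within the Control group, replicate 2 stood apart. It was the highest of the 3 Control libraries for 8 of the 8 tested genes, at 1.33 times (Erap1) to 3.03 times (Tap1) the mean of the other 2, and for 13 of the 13 microglial markers. High values in replicate 2 were not particular to Control. Of the 3 libraries of a group, replicate 2 was the highest in 16 of the 16 groups for Tap1 and Psmb9, in 15 for Psmb10 and Erap1, in 14 for Tapbp, in 13 for Psmb8 and Nlrc5, in 8 for B2m, and in 15 for the summed microglial markers. Comparisons with Control are given with and without Control replicate 2, and also without replicate 2 of every group, an alternative chosen after seeing the data that keeps the groups balanced.

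The promoters of 7 of the 9 genes were matched by symbol in RefSeq (GRCr8), a build other than the one of the expression table. They are shown because the tested genes moved together, although Tap2 was too low to test and Nlrc5 and Erap1 had no promoter matched. A further reason is that interferon-responsive genes often hold the interferon-stimulated response element. It was searched here as GAAA, any 2 bases and GAAA again on both strands from 250 bases before to 50 after the start. Matches stood in 6 of the 7 promoters, against 3.92% of the 33469 RefSeq promoters of the same length. The other letters searched were the gamma-activated site TTCNNNGAA, found in 1 of the 7 (Psmb8) and in 8.87% of all promoters, the cAMP response element TGACGTCA, found in 0 of the 7 and in 1.83%, and the Y box CCAAT, found in 3 of the 7 (B2m, Psmb8 and Psmb9) and in 37.5%. The 6 windows below run from 160 bases before the start to 10 after it, read 5′ to 3′ on the gene's strand, with matches to this element or its reverse complement in capitals.
B2m, chr3:129549170-129549340, plus strand: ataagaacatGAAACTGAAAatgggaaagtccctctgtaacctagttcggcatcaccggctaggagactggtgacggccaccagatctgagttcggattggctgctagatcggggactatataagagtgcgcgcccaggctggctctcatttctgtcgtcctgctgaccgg
Tap1, chr20:4668533-4668703, minus strand: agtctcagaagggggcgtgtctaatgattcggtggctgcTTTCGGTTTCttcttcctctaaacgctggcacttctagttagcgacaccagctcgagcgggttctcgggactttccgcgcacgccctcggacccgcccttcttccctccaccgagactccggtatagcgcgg
Tap2, chr20:4652286-4652456, minus strand: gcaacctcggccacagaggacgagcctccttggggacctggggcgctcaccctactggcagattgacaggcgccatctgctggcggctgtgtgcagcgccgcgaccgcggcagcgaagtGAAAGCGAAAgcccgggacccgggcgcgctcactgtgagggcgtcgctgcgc
Tapbp, chr20:4967867-4968037, minus strand: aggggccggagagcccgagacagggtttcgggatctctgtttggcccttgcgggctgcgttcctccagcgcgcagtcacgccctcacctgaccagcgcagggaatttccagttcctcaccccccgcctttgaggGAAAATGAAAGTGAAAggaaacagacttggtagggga
Psmb8, chr20:4657021-4657191, minus strand: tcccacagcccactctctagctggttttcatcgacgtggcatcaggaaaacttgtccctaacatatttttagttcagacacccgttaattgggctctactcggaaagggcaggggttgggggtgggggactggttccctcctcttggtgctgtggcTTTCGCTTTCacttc
Psmb10, chr19:50743282-50743452, minus strand: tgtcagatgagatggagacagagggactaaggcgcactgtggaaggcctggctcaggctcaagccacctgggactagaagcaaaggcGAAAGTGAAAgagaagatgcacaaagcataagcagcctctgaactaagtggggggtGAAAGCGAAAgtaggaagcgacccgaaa
The capitals of Tapbp hold 2 overlapping matches and those of Psmb10 2 separate ones. Psmb9 has no match within its own window. Tap1 and Psmb9 lie head to head on chromosome 20 with 456 bases between their starts, and the match printed for Tap1 lies between them, 336 to 345 bases before the start of Psmb9 and outside its window. A match is a description of letters and not a measured binding site.

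B2m had the largest difference with Tat of the 8 genes, and it was the only one of them whose libraries with and without Tat did not overlap. It stood at 1077, 1978 and 1185 CPM in the Control libraries and at 4407, 4895 and 5648 CPM in the Tat libraries. The lowest of the 30 libraries with Tat (2868 CPM, Tat-4OI) was above the highest of the 18 without it (1978 CPM, Control), a separation seen in 0.548% of the genes tested. The group means ran from 1144 ± 384 CPM (SD, n = 3) with Senicapoc to 5156 ± 342 CPM with Tat-Cocaine-Tazemetostat, and the 10 highest groups by mean were the 10 groups with Tat. Between neighbours in that order, libraries overlapped in 13 of 15 pairs.

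**Figure D1:**
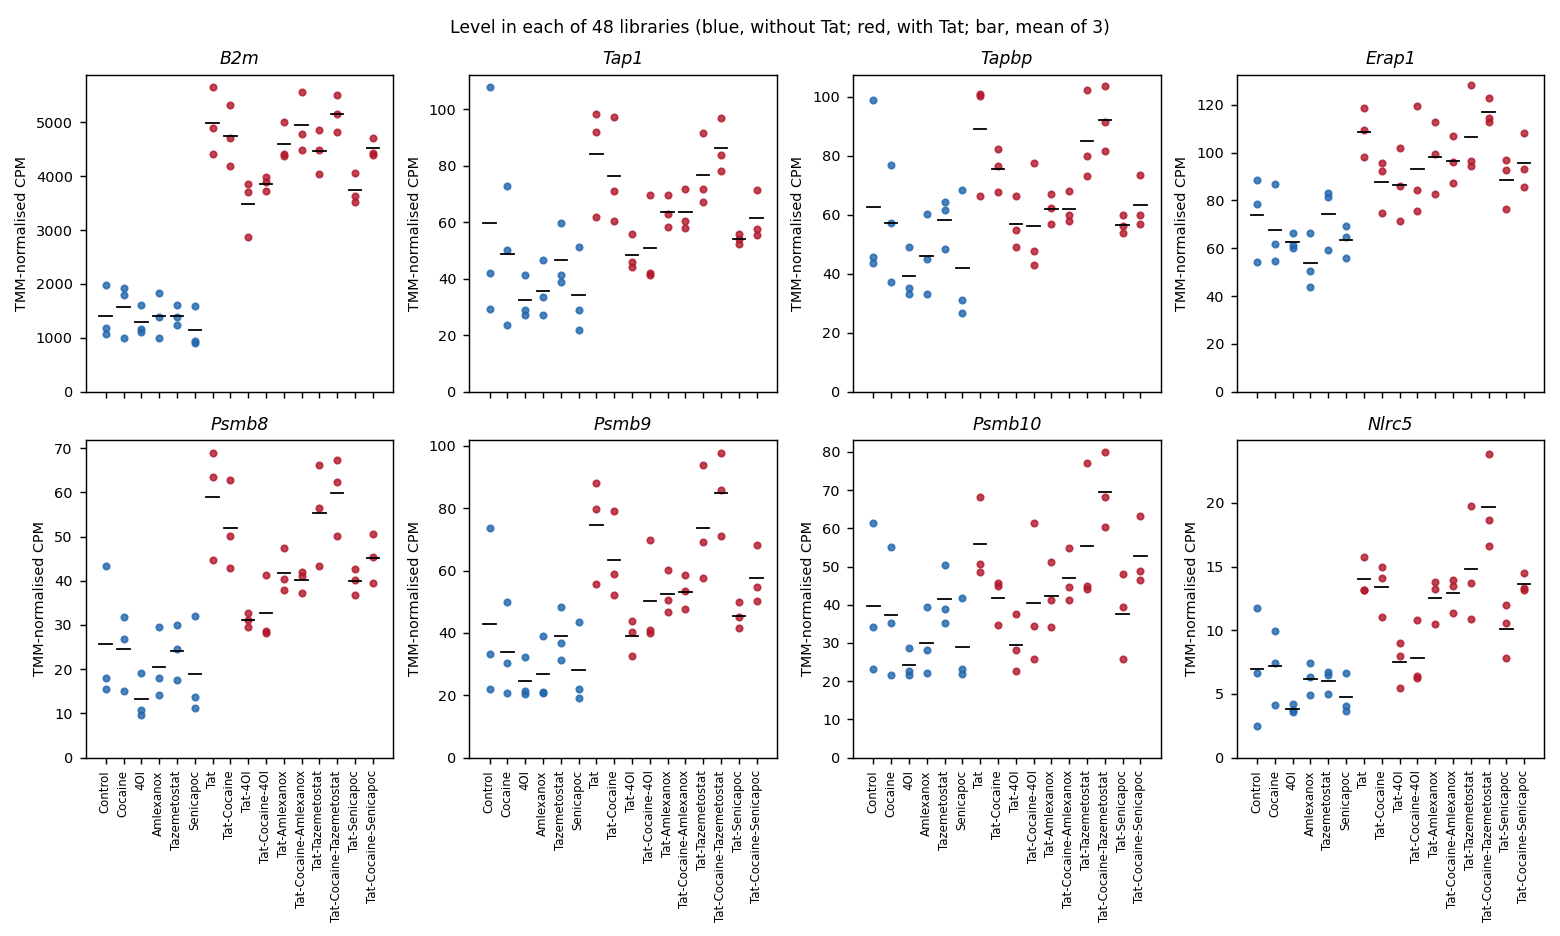
Level of the 8 tested genes in TMM-normalised CPM (y axis, from 0) in each library of the 16 groups (x axis). Points are libraries (blue without Tat, red with Tat) and bars are means of 3. The B2m points with Tat lie between 2868 and 5648 CPM, above the 900.5 to 1978 CPM of those without, while the other 7 genes overlap.

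The immunoproteasome gene Psmb8 stood at 15.5, 43.3 and 18.0 CPM in Control and at 44.6, 63.4 and 68.8 CPM with Tat. The 3 Tat libraries were above the 3 Control libraries, by little over Control replicate 2. Its partner Psmb9 stood at 22.03, 73.6 and 33.3 CPM in Control and at 55.9, 88.1 and 79.9 CPM with Tat. For Psmb9 the lowest Tat library was below Control replicate 2. Psmb10 stood at 23.2, 61.5 and 34.2 CPM in Control and at 50.7, 68.2 and 48.6 CPM with Tat, and overlapped in the same way.

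The transporter gene Tap1 stood at 29.3, 108 and 42.01 CPM in Control and at 62.0, 98.5 and 92.1 CPM with Tat, so that Control replicate 2 was above every Tat library. Tapbp stood at 45.6, 98.8 and 43.5 CPM in Control and at 66.4, 100.1 and 101 CPM with Tat, where replicate 2 of Control fell among the Tat libraries. The aminopeptidase Erap1 stood at 54.3, 88.4 and 78.5 CPM in Control and at 110, 119 and 98.2 CPM with Tat, with all 3 Tat libraries above. Nlrc5, the transactivator, stood at 2.45, 11.7 and 6.63 CPM in Control and at 13.2, 15.8 and 13.1 CPM with Tat, again with all 3 Tat libraries above. In all, 4 genes (B2m, Psmb8, Erap1 and Nlrc5) were thus separate between Tat and Control, and 19.4% of the genes tested were separate in that direction.

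Tap2, the second subunit of the transporter, was at or under the value of 3 reads in 43 of the 48 libraries and listed at 0 in 11. Its highest value was 0.188 CPM. RefSeq lists Tap2 as a synonym of Tap1 as well, and no change of Tap2 was detectable at this depth.

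The question of the first comparison was what Tat alone did to these genes. In limma on log2(CPM + 0.5) over all 48 libraries, 5 of the 8 genes were higher with Tat than in Control at a Benjamini-Hochberg adjusted p (FDR) under 0.05, as were 14.6% of the genes tested. B2m rose by 1.86 ± 0.22 (log2 fold change ± SE, FDR 1.37e-07), Psmb8 by 1.31 ± 0.33 (FDR 0.00341), Nlrc5 by 1.19 ± 0.31 (FDR 0.00568), Psmb9 by 0.94 ± 0.33 (FDR 0.0365) and Erap1 by 0.58 ± 0.19 (FDR 0.0219). Tap1, Tapbp and Psmb10 did not pass, with differences of 0.69 ± 0.34 (FDR 0.140), 0.59 ± 0.28 (FDR 0.135) and 0.59 ± 0.33 (FDR 0.194). The median difference of the 8 genes was 0.81 on the log2 scale, and that of all genes tested 0.01. Without Control replicate 2 all 8 genes passed, Tap1 at 1.22 ± 0.32, Tapbp at 0.97 ± 0.29 and Psmb10 at 0.96 ± 0.34, in a fit that kept replicate 2 of Tat and of the other groups. Without replicate 2 of every group all 8 passed as well, Tap1 at 1.09 ± 0.24, Tapbp at 0.87 ± 0.19 and Psmb10 at 0.81 ± 0.23. Without Control replicate 1 only 2 passed, and without Tat replicate 2 only 3 did. With the replicate number as a block all 8 passed, although the numbers did not pair these groups by the rule given below.

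The same comparison was available beside 4OI, Amlexanox, Tazemetostat and Senicapoc, which gave 5 differences with Tat in cultures without cocaine. Over the mean of the 5, all 8 tested genes were higher with Tat, where 29.9% of all genes were called higher. Of all genes called, 52.9% were higher, and 40.8% under quantile normalization, where all 8 genes still passed. B2m was 3.24-fold higher (log2 1.69 ± 0.10, FDR 8.3e-16), Psmb8 2.32-fold (1.21 ± 0.15, FDR 1.75e-08) and Nlrc5 2.07-fold (1.05 ± 0.14, FDR 1.39e-07). Psmb9 followed at 1.81-fold (0.86 ± 0.15, FDR 9.05e-06), Tap1 at 1.65-fold (0.72 ± 0.15, FDR 0.000143) and Erap1 at 1.49-fold (0.58 ± 0.08, FDR 5.07e-07). Tapbp at 1.45-fold (0.54 ± 0.13, FDR 0.000605) and Psmb10 at 1.34-fold (0.42 ± 0.15, FDR 0.0142) changed least. The difference was above 0 in 5 of 5 backgrounds for each gene. The median of the 8 genes was 0.79 and that of all genes tested was 0.00.

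**Figure D2:**
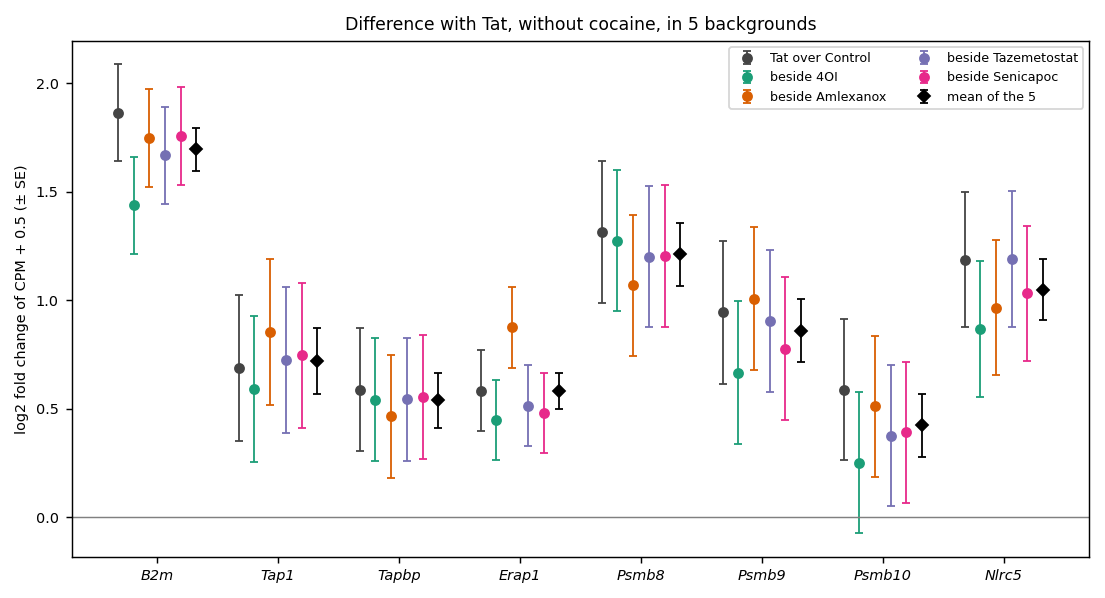
Log2 fold change of CPM + 0.5 with Tat (y axis, ± SE from limma) for each gene (x axis), in Control cultures, beside each of the 4 compounds, and as the mean of the 5 differences (black diamonds). Each of the points lies above 0, from 0.25 (Psmb10 beside 4OI) to 1.86 (B2m over Control).

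The microglial and macrophage markers moved in part with Tat. In the mean of the 5 backgrounds, 7 of the 13 were higher and 1 was lower, with a median of 0.48, while 7 of 9 neuronal markers were lower. Of all genes, 29.9% were called higher there and 4235 of the 15890 lower. The summed level of the 13 markers was 1612 to 2878 CPM in Control and 2050 to 3663 CPM with Tat, and each of the 13 was above 3 reads in every library. Of the 8 genes, the library of a group that was highest for the microglial markers was also the highest for Psmb10 and Erap1 in 16 of 16 groups, for Tap1 and Psmb9 in 15, for Nlrc5 in 14, for Tapbp in 13 and for Psmb8 in 12, but for B2m in 7. With the mean level of the 13 markers as a covariate in the fit, an alternative chosen after seeing the data, 7 of the 8 genes were still higher with Tat in the mean of the 5 backgrounds. B2m was then higher by 1.56 ± 0.10, Psmb8 by 0.91 ± 0.13, Nlrc5 by 0.72 ± 0.11, Psmb9 by 0.53 ± 0.12, Erap1 by 0.39 ± 0.07, Tap1 by 0.38 ± 0.12 and Tapbp by 0.24 ± 0.10. Psmb10 was at 0.03 ± 0.08 and no longer passed.

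**Figure D3:**
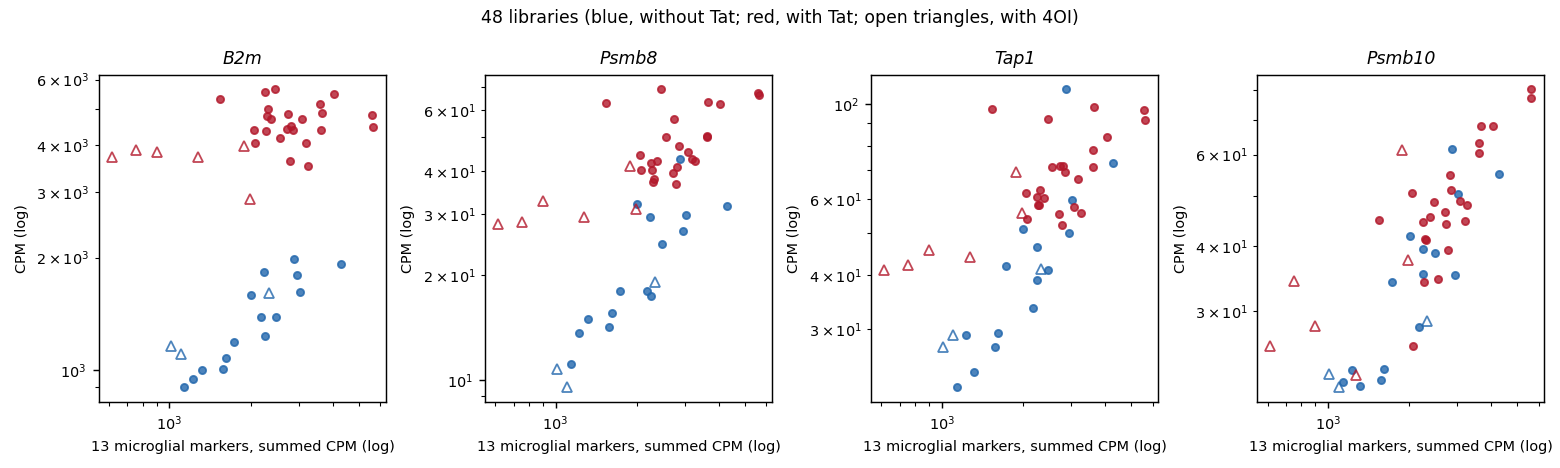
Level of B2m, Psmb8, Tap1 and Psmb10 in CPM (y axis, log scale) against the summed CPM of 13 microglial and macrophage markers (x axis, log scale) in 48 libraries (blue without Tat, red with Tat, open triangles with 4OI). The B2m libraries with Tat lie above those without at any marker level, from 2868 CPM up, while for Psmb10 the colours mix.

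The partners of the 8 genes were described by 5 lists. In the mean of the 5 backgrounds, used for each list, 29.9% of all genes were called higher and 4235 of the 15890 lower. Of the 18 class I heavy chain genes tested (of 21 in the table), 16 were higher with Tat in the mean of the 5 backgrounds and 0 were lower, with a median of 1.61. RT1-A1, a classical heavy chain, stood at 199, 478 and 202 CPM in Control and at 887, 1215 and 1308 CPM with Tat, and rose by 1.86 ± 0.15 (FDR 1.31e-12). RT1-A2 stood at 275, 589 and 254 CPM in Control and at 968, 1297 and 1390 CPM with Tat, and rose by 1.64 ± 0.14 (FDR 6.84e-12). The RT1 genes are near-identical copies whose reads can be assigned to the wrong member, so the single values are uncertain. The light chain and most heavy chains were thus higher together, and RT1-N2 and RT1-S2 did not pass.

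Of the 9 tested partners in loading and trimming (of 10 listed), 5 were higher and 2 lower, with a median of 0.14. Among all genes, 29.9% were called higher and 4235 of the 15890 lower. Tapbpl, a relative of tapasin, rose by 0.59 ± 0.10, the chaperone Calr by 0.35 ± 0.07 and the disulfide isomerase Pdia3 by 0.26 ± 0.06. The chaperone Canx, at 0.06 ± 0.03, did not pass (FDR 0.0705). Of the proteasome activators and assembly factors 6 of 6 tested were higher, with Psme1 at 0.53 ± 0.08 and Psme2 at 0.65 ± 0.10, the subunits of the activator that binds the proteasome in interferon-treated cells. The other 4 moved by 0.08 to 0.24.

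Of the 21 upstream regulators tested (of 24), 17 were higher and 1 was lower (Nfyb), with a median of 0.50. The NF-kappa-B precursor Nfkb1 rose by 1.07 ± 0.10, Irf9 by 0.99 ± 0.10 and Irf1 by 0.54 ± 0.12. Ifnb1 was at or under 3 reads in 48 of 48 libraries and Ifng in 42, with a highest value of 0.425 CPM for Ifng in a library without Tat. A change of either interferon was not detectable at this depth.

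Of the 3 catalytic subunits that the immunoproteasome genes replace, 2 fell and 0 rose, where 4235 of all 15890 genes were called lower. Psmb7 fell by 0.24 ± 0.04 and Psmb6 by 0.10 ± 0.04 in the mean of the 5 backgrounds, while Psmb5 was at -0.03 ± 0.03 (FDR 0.318). The ratio of each pair within a library was compared as well. CPM is not divided by gene length, so the change of a ratio can be read and its level cannot be read as a ratio of molecules. Psmb8 over Psmb5 was 0.199, 0.547 and 0.250 in Control and 0.555, 0.822 and 0.851 with Tat. The 3 Tat libraries were above the 3 Control libraries for this pair, which was not so for the other 2 pairs. Over the 5 backgrounds the ratio of Psmb8 to Psmb5 was 2.37-fold higher with Tat, that of Psmb9 to Psmb6 1.95-fold and that of Psmb10 to Psmb7 1.58-fold. Each was higher in 5 of 5 backgrounds, and two-sided permutation tests within backgrounds (100000 resamples, adjusted over the 3 ratios) gave p = 1.5e-05, 1.5e-05 and 0.00011. The raw p of the first 2 was 1e-05, the smallest these resamples can give. For Tat against Control alone, exact permutation tests gave p = 0.1, 0.2 and 0.3, where 3 against 3 libraries cannot go below 0.1. The ratios were not fitted with the microglial marker level, a covariate with which Psmb10 itself no longer passed.

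**Figure D4:**
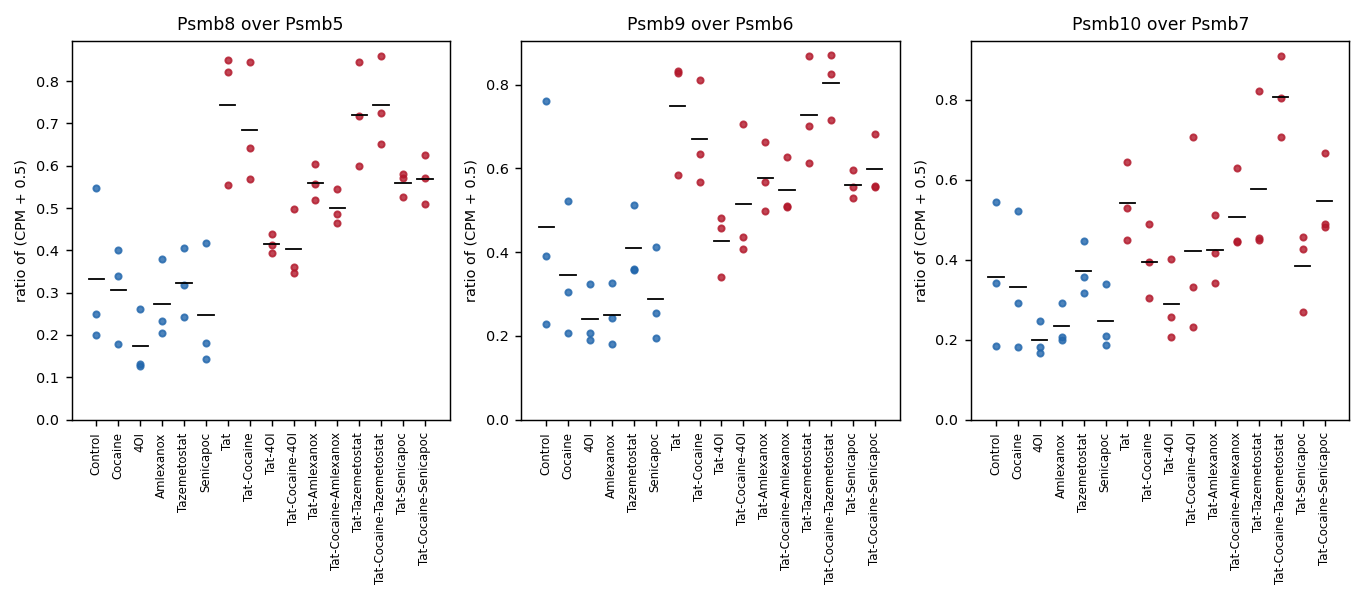
Ratio of each inducible to its constitutive catalytic subunit, as (CPM + 0.5) over (CPM + 0.5) from 0 (y axis), in each library of the 16 groups (x axis, blue without Tat, red with Tat, bars are means of 3). Psmb8 over Psmb5 runs from 0.199 to 0.547 in Control and from 0.555 to 0.851 with Tat.

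Cocaine was added to ask whether it changed the response. Cocaine alone changed 0 of the 8 genes in limma, with 0 at an unadjusted p under 0.05, where 0.201% of all genes were called in either direction. The differences lay between -0.25 (Psmb9) and 0.19 (Nlrc5), and the 95% intervals of the 8 genes between -0.92 and 0.83. Beside Tat, over the mean of 5 backgrounds, cocaine again changed 0 of the 8 (0 at an unadjusted p under 0.05), against 4.55% of all genes. There the differences lay between 0.00 (Tapbp) and 0.20 (Psmb10), with intervals from -0.27 to 0.50. This mean joined differences of both signs. Without a compound they lay between -0.41 (Psmb10) and -0.07 (B2m), below 0 for all 8. Beside 4OI they lay between -0.06 and 0.39, and beside Amlexanox between -0.06 and 0.16. All 8 were above 0 beside Tazemetostat (0.12 to 0.43) and beside Senicapoc (0.11 to 0.515). In each of the 5 backgrounds, 0 of the 8 were at an unadjusted p under 0.05.

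Tat-Cocaine cultures were compared with Control as well, a comparison that shares the Control libraries with that of Tat. B2m stood at 4188, 5328 and 4708 CPM in Tat-Cocaine, Psmb8 at 50.1, 62.7 and 42.8 CPM and Nlrc5 at 11.03, 14.1 and 14.9 CPM. Of the 8, B2m alone did not overlap with Control, and 15.1% of all genes were separate in that direction. These 3 genes were higher than in Control, B2m by 1.79 ± 0.22 (FDR 5.12e-07), Psmb8 by 1.14 ± 0.33 (FDR 0.0150) and Nlrc5 by 1.11 ± 0.31 (FDR 0.0132), beside 8.63% of all genes. Psmb9 was at 0.71 ± 0.33 and the other 4 genes at 0.18 to 0.55. Replicate numbers paired the libraries of these groups, and with the number as a block Psmb9 passed too, which made 4 genes (FDR 0.00972, between 0.00212 and 0.618 over the alternatives). Without replicate 2 of every group the count was 6, without Control replicate 2 alone it was 5, and without Control replicate 1 it was 1.

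4OI lowered most of the genes. In the mean over Control, Tat and Tat-Cocaine backgrounds, 6 of the 8 were lower and 0 higher, where 11.8% of all genes were called lower. Psmb8 fell by 0.80 ± 0.19 on the log2 scale (1.74-fold lower, FDR 0.00176), Nlrc5 by 0.74 ± 0.18 (1.67-fold, FDR 0.00269) and Tap1 by 0.68 ± 0.19 (1.60-fold, FDR 0.00994). Psmb9 fell by 0.64 ± 0.19 (1.55-fold, FDR 0.0130), Tapbp by 0.56 ± 0.16 (1.48-fold, FDR 0.0112) and Psmb10 by 0.55 ± 0.19 (1.46-fold, FDR 0.0316). The Psmb10 call was lost in 10 of the 18 fits that left out 1 library, and the other 5 calls were lost in 0 of 18. Those libraries were Control and Tat replicate 2, replicates 1 and 3 of 4OI, Tat-4OI and Tat-Cocaine-4OI, and Tat-Cocaine replicates 2 and 3, and the difference of Psmb10 ran from -0.66 to -0.42 over the 18. B2m, at -0.30 ± 0.13 (FDR 0.0898), and Erap1, at -0.16 ± 0.11 (FDR 0.318), did not pass. The median of the 8 genes was -0.60 and that of all genes 0.01.

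The genes that 4OI lowered were low without Tat too. With 4OI alone Psmb8 stood at 10.7, 19.2 and 9.55 CPM and Nlrc5 at 3.72, 4.18 and 3.54 CPM, and the 4OI group had the lowest mean of the 16 groups for Tap1, Tapbp, Psmb8, Psmb9, Psmb10 and Nlrc5. Each of the 8 genes overlapped with Control. Against Control, limma called 0 of the 8 (2 at an unadjusted p under 0.05), with differences from -0.85 (Psmb8) to -0.10 (B2m), beside 3.15% of all genes called in either direction and 0.686% called lower. Replicate numbers paired the 4OI and Control libraries, and with the number as a block Psmb8 at -0.85 ± 0.24 (FDR 0.0273) and Psmb10 at -0.59 ± 0.18 (FDR 0.0472) were lower. Over the alternatives run, the FDR lay between 0.0273 and 0.852 for Psmb8 and between 0.0472 and 0.999 for Psmb10.

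Beside Tat, the Tat-4OI libraries lay below all 3 Tat libraries for 7 of the 8 genes, the exception being Erap1, where 17.2% of all genes were separate in that direction. Psmb8 stood at 29.5, 31.02 and 32.7 CPM in Tat-4OI, Psmb9 at 32.5, 43.8 and 40.4 CPM and Psmb10 at 22.6, 37.7 and 28.1 CPM. Limma called 2 of the 8 lower (9.48% of all genes), Psmb10 by 0.93 ± 0.33 (FDR 0.0484) and Nlrc5 by 0.88 ± 0.31 (FDR 0.0497). Psmb8, at -0.89 ± 0.33 (FDR 0.0575), and Psmb9, at -0.92 ± 0.33 (FDR 0.0529), were next to the threshold. No gene passed without Tat replicate 2, without Tat-4OI replicate 1 or without Tat-4OI replicate 3. Only 1 passed without Tat replicate 3, and without Tat replicate 1 Psmb8 and Psmb9 passed in place of the 2. With the replicate number as a block 7 of the 8 were lower, all but B2m. The numbers did not pair these groups by the rule given below. B2m stood at 3714, 2868 and 3847 CPM, below the Tat libraries and above every library without Tat.

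With Tat and cocaine, 4OI changed 0 of the 8 genes in limma (2 at an unadjusted p under 0.05), where 7.36% of all genes were called. The differences ran from -0.76 (Nlrc5) to 0.07 (Erap1). Whether 4OI altered the response to Tat was tested as the difference of 2 differences, and 0 of the 8 genes passed (0 at an unadjusted p under 0.05, FDR from 0.587 to 0.98, beside 0.497% of all genes). The estimates lay between -0.43 (B2m) and -0.04 (Psmb8), with intervals from -1.27 to 0.89, so that a change of the response by these amounts was not detectable with 3 libraries a group.

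The microglial markers fell with 4OI. In the mean of the 3 backgrounds 9 of the 13 were lower and 0 higher, with a median of -0.92, where 11.8% of all genes were called lower. Their summed level was 1012 to 2334 CPM with 4OI, 896 to 1974 CPM with Tat-4OI and 615 to 1880 CPM with Tat-Cocaine-4OI, against 1612 to 2878 CPM in Control, 2050 to 3663 CPM with Tat and 1540 to 2553 CPM with Tat-Cocaine. With the marker level as a covariate 0 of the 8 genes passed, and the differences with 4OI were -0.42 ± 0.16 for Psmb8, -0.32 ± 0.14 for Nlrc5, -0.24 ± 0.15 for Tap1 and -0.04 ± 0.11 for Psmb10. Markers of other cells moved beside Tat-4OI as well. The summed neuronal markers were 2987 to 3824 CPM with Tat-4OI and 1425 to 2720 CPM with Tat, which did not overlap, and 9 of the 9 had a difference above 0 (median 0.59), although 0 passed in limma (3 at an unadjusted p under 0.05). Of the 7 astrocyte markers 1 was called higher with 4OI beside Tat. With cocaine present too 3 were, where 7.36% of all genes were called in either direction. The share of all genes called higher beside Tat is not given, so that 1 marker is a description only. The part of these markers in the lower levels was not tested beyond the covariate fit. By Iba1 staining, the paper describes more microglial cells with 4OI in control and Tat cultures, and fewer in Tat-Cocaine cultures. Its figure legend gives that last difference as not significant. The marker level here is an RNA level and cannot stand for a count of microglia.

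Most heavy chains were lower with 4OI as well, in the mean of the 3 backgrounds. Of the 18 heavy chains tested 16 were lower and 0 higher (median -0.75), RT1-A1 by 0.79 ± 0.19 and RT1-A2 by 0.69 ± 0.18. Among all genes, 11.8% were called lower and 11% higher. Of the regulators 9 of 21 were lower and 1 higher, among them Irf9 by 1.03 ± 0.13, while Jak1 rose by 0.42 ± 0.04. Of the 6 proteasome activators and assembly factors, Psme2 fell by 0.51 ± 0.13, Psme1 fell by 0.36 ± 0.11 and Psme4 rose by 0.23 ± 0.06. Calr and Tapbpl were lower among the loading partners and Thop1 and Canx higher, and 0 of the 3 constitutive subunits passed, with differences between 0.02 and 0.04.

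**Figure D5:**
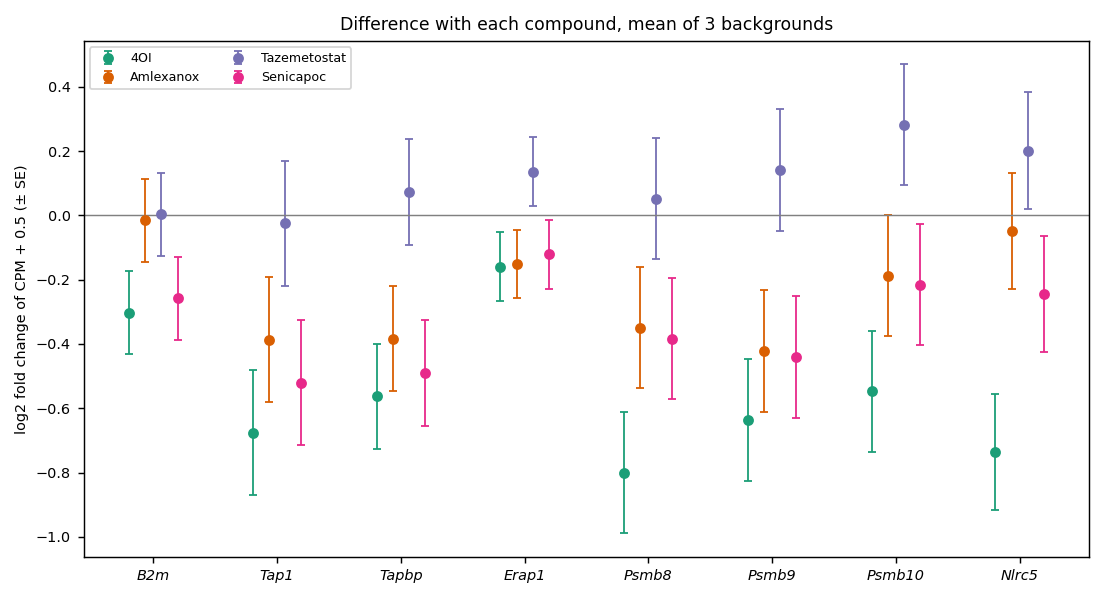
Log2 fold change of CPM + 0.5 with each compound (y axis, ± SE from limma) as the mean over Control, Tat and Tat-Cocaine backgrounds, for each gene (x axis). The 4OI points lie between -0.80 (Psmb8) and -0.16 (Erap1), and those of Tazemetostat between -0.03 (Tap1) and 0.28 (Psmb10).

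Limma called 0 of the 8 genes with Amlexanox, Tazemetostat or Senicapoc in the main fit. This held over Control, beside Tat, beside both agents and in the mean of the 3 backgrounds. The share of all genes called in either direction was 11.4% for Amlexanox over Control, 0.837% beside Tat, 0.925% beside both and 7.99% in the mean. For Tazemetostat it was 0% over Control, 0% beside Tat, 28.7% beside both and 11.4% in the mean, and for Senicapoc 0%, 0.409%, 0.0441% and 1.16%. At an unadjusted p under 0.05 there were, in the same order, 1, 0, 0 and 2 of the 8 with Amlexanox. With Tazemetostat there were 0, 0, 2 and 0, and with Senicapoc 1, 2, 0 and 4. The share of all genes at that unadjusted threshold is not given, so these counts are a description only. In the mean of the backgrounds with Amlexanox the differences lay between -0.42 (Psmb9) and -0.02 (B2m), with 95% intervals from -0.81 to 0.32. With Senicapoc they lay between -0.52 (Tap1) and -0.12 (Erap1), with intervals from -0.91 to 0.17. With Tazemetostat they lay between -0.03 (Tap1) and 0.28 (Psmb10), with intervals from -0.42 to 0.66. In these means, limma with the replicate block called Psmb9, Tap1 and Tapbp lower with Senicapoc (FDR 0.0118 to 0.0225) and with Amlexanox (FDR 0.0129 to 0.0444). It called Psmb10 higher with Tazemetostat (FDR 0.0463). With the microglial covariate the same 3 genes passed with Senicapoc, and Psmb9 and Tapbp with Amlexanox. Leaving out 1 library gave 0 genes with Amlexanox or Tazemetostat and at most 1 with Senicapoc.

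Senicapoc beside Tat gave the most separate libraries of the 3. All 3 Tat-Senicapoc libraries were below all 3 Tat libraries for 8 of the 8 genes, where 13.6% of all genes were. Tap1 stood at 54.0, 55.7 and 52.4 CPM in Tat-Senicapoc and Psmb8 at 40.2, 42.6 and 36.7 CPM. The differences ran from -0.68 ± 0.33 (Psmb9) to -0.30 ± 0.19 (Erap1), and none passed (FDR from 0.242 to 0.421). This comparison shares its 3 Tat libraries with that of Tat-4OI. The separation was not seen with cocaine present. Tat-Cocaine-Senicapoc libraries overlapped with Tat-Cocaine for 7 genes and lay above for 1, with differences from -0.29 (Tap1) to 0.34 (Psmb10). The summed level of the microglial markers was 2067 to 3258 CPM with Tat-Senicapoc and 2050 to 3663 CPM with Tat. That of the neuronal markers was 3455 to 4230 CPM with Tat-Senicapoc and 1425 to 2720 CPM with Tat, without overlap. All 9 neuronal markers had a difference above 0 (median 0.67), of which 0 passed in limma (8 at an unadjusted p under 0.05). The part of the neuronal markers in the lower levels was not tested.

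The differences with Tazemetostat were largest beside Tat and cocaine, where the group had the highest mean of the 16 for 8 of the 8 tested genes. In the order of means, neighbouring groups overlapped in 15 of 15 pairs for every tested gene but B2m. Limma called 0 of the 8 here, where 28.7% of all genes were called in either direction. Psmb10 stood at 68.1, 80.1 and 60.4 CPM in Tat-Cocaine-Tazemetostat and at 34.6, 44.9 and 45.6 CPM in Tat-Cocaine, and did not overlap. Its difference was 0.73 ± 0.33 (FDR 0.0838). Erap1 stood at 113, 123 and 115 CPM against 74.9, 92.3 and 95.6 CPM, with a difference of 0.42 ± 0.19 (FDR 0.0807). A total of 3 of the 8 genes were separate upward, against 24.8% of all genes, and 15.2% of all genes were called higher. In the same comparison 8 of the 13 microglial markers were higher, their sum being 3608 to 5601 CPM against 1540 to 2553 CPM, and 7 of the 9 neuronal markers were lower. With the microglial level as a covariate the differences changed sign for 7 of the 8 genes, with none past the threshold. Psmb10 was then at -0.10 ± 0.18, Psmb9 at -0.26 ± 0.26, Psmb8 at -0.41 ± 0.28, Tap1 at -0.52 ± 0.26 and Erap1 at 0.03 ± 0.15.

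Whether the response to Tat differed beside Amlexanox, Tazemetostat or Senicapoc was tested in the same way as for 4OI, and 0 of the 8 genes passed in any of the 3 (0 at an unadjusted p under 0.05), beside 1.84% of all genes for Amlexanox, 0% for Tazemetostat and 0% for Senicapoc. The estimates lay between -0.25 (Psmb8) and 0.29 (Erap1) beside Amlexanox, between -0.21 (Psmb10) and 0.04 (Tap1) beside Tazemetostat, and between -0.20 (Psmb10) and 0.06 (Tap1) beside Senicapoc. Their intervals reached from -1.18 to 1.13.

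The 8 genes followed each other over the 16 group means. Pearson's r between pairs was 0.72 (B2m with Psmb10) to 0.98 (Tap1 with Psmb9), as a description over 16 points that share libraries. Among 11956 genes with a mean of at least 5 CPM and outside the lists used here, those most like the mean standardised profile of the 8 were Lgals3bp (r = 0.992), Sp140 (0.992), LOC685067 (0.991), Tnfaip2 (0.988) and Icam1 (0.983). Lgals3bp, a secreted glycoprotein, was at a mean of 176 CPM in Control, 398 CPM with Tat and 167 CPM with Tat-4OI. Icam1, an adhesion molecule, was at 47.01, 198 and 59.1 CPM in the same groups. Tnfaip2 was at 49.7, 329 and 72.6 CPM.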

How the data were processed

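The authors made strand-specific polyA RNA libraries. Per the labels, the tools were Trim Galore 0.4.5, STAR 2.7.2, SAMtools 1.5 and featureCounts of Subread 1.5.3, with builds mRatBN7.2 and hg38 listed. The authors divided gene counts by TMM-scaled library sizes, and the deposited signal is this normalised CPM. Whole reads, to a tolerance of 0.02, were recovered for 85.0 to 87.3% of nonzero values per library, and no count test was run. The deposited table also holds 16 group mean columns and 180 columns of the authors' own tests in 36 comparisons, which were not used.

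Groups and replicate numbers came from the labels. Values were tested as log2(CPM + 0.5) with limma 3.58.1 in R 4.3.3, with 16 group means fitted over 48 libraries, eBayes with a trend, and Benjamini-Hochberg adjustment over the 15890 genes that reached 0.5 CPM in 3 or more libraries. The same steps were also run on simulated counts with independent libraries and no shared replicate effect. That setting is unlike replicate 2 here, so the run does not bear on it. Subunit ratios were compared by permutation within backgrounds. Intervals are 95% intervals from limma. Counts at an unadjusted p under 0.05 are given without the share of all genes at that threshold and are descriptions only.

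All 9 members were named, with up to 3 called genes per list, Psmb5, Psmb6, Psmb7, Irf1, Ifng, Ifnb1, Psme1, Psme2, Calr, Canx, Pdia3, and the 5 most similar genes. RT1-A2, RT1-N2, RT1-S2, Nfyb, Jak1, Thop1 and the RT1-A1 levels were named after their values were seen. A gene that the naming rule also held is not reported here. Members and lists were chosen with earlier results of these data known. Alternatives were another pseudocount, filter, normalization, variance model or set of libraries, the replicate number as a block, each replicate left out, and, chosen after seeing the data, the microglial level as a covariate and replicate 2 of every group left out.

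Replicate numbers paired the libraries in 27 of 120 pairs of groups, by correlations over 0.1 of all 3 same-numbered deviations. Among them were Tat-Cocaine with Control and 4OI with Control, and not Tat with Control or with Tat-4OI. The rule used all genes tested. For every tested member but B2m, replicate 2 was the highest library in at least 13 of the 16 groups. The floor of 3 reads per library used for Tap2 and the interferons covers counting error only.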

Additional observations from a re-analysis of the deposited data

How the results depend on the processing

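No difference that limma called in the report changed its sign (0 of 688 refitted values). Of those it did not call, 310 of 3736 did. The microglial covariate turned 7 of 8 for Tat-Cocaine-Tazemetostat against Tat-Cocaine, 7 of 8 for Tazemetostat over 3 backgrounds, and Erap1 for 4OI over 3 backgrounds, to 0.08. The 8 genes called for Tat over 5 backgrounds stayed at 8 whichever library was left out. Leaving out 1 library moved the count from 2 to 8 for Tat over Control, 1 to 5 for Tat-Cocaine over Control, 0 to 2 for Tat-4OI against Tat, 5 to 7 for 4OI over 3 backgrounds, and 0 to 1 for 4OI and for Amlexanox over Control (1 without Control replicate 1) and for Senicapoc over 3 backgrounds (1 without Senicapoc replicate 2). Fits on the compared groups only gave 1 gene for Tat over Control, 1 for Tat-Cocaine over Control, 4 for Tat-4OI against Tat and 2 for Tat-Cocaine-Tazemetostat against Tat-Cocaine. The 21 libraries of 7 groups gave 3 for Tat over Control, 0 for Tat-4OI against Tat and 3 for 4OI over 3 backgrounds. For Tat-4OI against Tat, no trend, no filter and quantile normalization each gave 0, and a pseudocount of 0.1 gave 1. Without replicate 2 of every group the counts were 8 for Tat over Control, 6 for Tat-Cocaine over Control, 4 for Tat-4OI against Tat and 1 for Tat-Cocaine-4OI against Tat-Cocaine.

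The replicate block gave 8 for Tat over Control, 2 for 4OI over Control, 7 for Tat-4OI against Tat, 1 for Tat-Cocaine-4OI against Tat-Cocaine, 1 for Amlexanox over Control, 3 for Amlexanox over 3 backgrounds, 2 for Tat-Cocaine-Tazemetostat against Tat-Cocaine, 1 for Tazemetostat over 3 backgrounds, 1 for Tat-Senicapoc against Tat and 3 for Senicapoc over 3 backgrounds. In 21 of 120 pairs of groups all 3 libraries correlated best with their own number.

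The microglial covariate gave 1 for cocaine beside Tat, 0 for Tat-4OI against Tat, 0 for 4OI over 3 backgrounds, 2 for Amlexanox over 3 backgrounds, 2 for Tat-Senicapoc against Tat and 3 for Senicapoc over 3 backgrounds. The 3 subunit ratios kept their direction and passed under each alternative run on them. Those were another pseudocount, quantile normalization, the replicate block and each library left out. The microglial covariate and the fit without replicate 2 of every group were not run on the ratios. The cause of the shifts between fits was not tested. Tap2, Ifng and Ifnb1 were too low to test, and the reason for their low values was not tested.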
